A study of Nicotiana tabacum with 18 samples.

Results

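The hybrid G70×GDH11 (H) was compared directly with the hybrid K326×GDH11 (L) in tobacco leaves. Both are F1 hybrids of flue-cured tobacco (Nicotiana tabacum) that share the male parent GDH11, so that by pedigree they differ in the chromosomes of the female parent, which is G70 in H and K326 in L. The 6 libraries of H and L, 3 for each hybrid, were taken from the 18 libraries of the series. The other 12 libraries came from the parents, with 3 each for G70 (HP1), K326 (LP1), GDH11 grown beside the G70 cross (HP2) and GDH11 grown beside the K326 cross (LP2). Middle leaves were collected 70 days after transplanting from field plots laid out in random blocks with 3 replicates, and leaves of several plants per plot were mixed, so that a library is a plot and not a plant. The study chose H as a hybrid whose leaf K+ content exceeds its parents strongly and L as one where it does so weakly, and the direct comparison asks which transcripts separate the hybrids.

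A hybrid carries 1 set of chromosomes from each parent. For a gene that is expressed from both sets, its level is often near the mean of the parents (the mid-parent), and a gene that is expressed in only 1 parent is often found in the hybrid at a level between the parents. Tobacco is an allotetraploid that descends from ancestors related to Nicotiana sylvestris and Nicotiana tomentosiformis, and most of its genes have a closely similar copy in the other subgenome. Reads of such pairs can be assigned to either copy, and the share that was assigned wrongly cannot be seen in these values. Leaf K+ depends on inward channels (KAT1/2, AKT2), the outward channel GORK, vacuolar carriers and channels (NHX1, TPC1, TPKs), K+ efflux antiporters (KEA) and the kinases CIPK5 and CIPK6, roles that are known mainly from Arabidopsis.

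Gene levels are given as FPKM, the number of sequenced fragments of a gene divided by the length of its transcript and by the size of its library. Between 31826 and 32433 of 69500 genes had at least 1 FPKM in each hybrid library, and the FPKM of a library summed to between 797445.19 and 814335.12. The replicates were not closer to each other than to the other hybrid. On the log2(FPKM + 1) scale, Pearson's r across genes, which are not independent replicates, was 0.858 to 0.973 within a hybrid and 0.866 to 0.961 between hybrids. The first principal component (47.2% of the variance) set H replicate 3 (94.9) and L replicate 1 (64.1) apart from the other 4 libraries, which lay between -50.4 and -26.7. The calls between the hybrids, the median of the K+ genes and a few single genes are therefore also given without these libraries. Most other results are given only with them. The median SD per gene was 0.34 in H and 0.21 in L on this scale.

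The labels were checked against the parents before any comparison. Taking 5 FPKM in all 3 libraries as on and less than 1 FPKM in all 3 as off, 4 genes were on in G70 alone among the parents, and all 4 had at least 1 FPKM in every H library. However, 3 of these 4 also had at least 1 FPKM in every L library, although neither labelled parent of L expressed them. Nitab4.5_0004024g0020 was at 40.39, 29.09 and 18.23 FPKM in G70 and at no more than 0.09 FPKM in K326 and GDH11, but at 15.78, 20.74 and 15.32 FPKM in L, beside 46.91, 22.56 and 35.66 FPKM in H. Likewise, 5 genes were on in K326 alone, and 3 of them had at least 1 FPKM in every H library. Nitab4.5_0000008g0430 was at 16.79, 26.55 and 10.98 FPKM in K326 and at no more than 0.34 FPKM in the other parents, but at 14.18, 10.74 and 15.91 FPKM in H. Some genes that were on in only the female parent of the other cross were thus expressed in all 3 libraries of each hybrid. FPKM per gene do not show which parental copy these transcripts came from. The remaining 2 K326 genes were near 0 in H, and the remaining G70 gene was near 0 in L, as the labelled parentage has it. The source of the transcripts that go against the labels was not tested, and H and L below mean the libraries labelled G70×GDH11 and K326×GDH11.

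H and L differed in few genes. A gene was tested where 3 or more of the 6 libraries held 1 FPKM or more, and it was called where the adjusted p did not exceed 0.05 and the difference reached 1 on the log2(FPKM + 1) scale (limma, Benjamini-Hochberg adjustment over all genes tested). Of 32663 genes tested, 30 (0.0918%) were called. Of these, 25 (0.0765%) were lower and 5 (0.0153%) were higher in H. With the same limit on the difference and an unadjusted p of at most 0.05 the split was different, with 328 genes (1.00%) higher and 299 genes (0.915%) lower in H. The 3 libraries of H lay wholly above those of L for 1062 genes (3.25%) and wholly below for 2712 genes (8.30%). The median difference of all genes was -0.08 on this scale, and the called differences were all larger than 1 in size by the rule. All 30 called genes had groups that did not overlap. Without H replicate 3 and L replicate 1, 11 genes were called in total, all of them among the 30. Leaving out a single library gave 9, 7 and 18 calls without H replicate 1, 2 or 3 and 17, 8 and 3 calls without L replicate 1, 2 or 3. Of the 30, 3 to 16 stayed called when a single library was left out. All 30 kept their sign in each of these fits, which was fixed in advance because their groups did not overlap. With the replicate number as a block in the model, 0 genes were called. At least 1 FPKM in all 6 libraries leaves only 2 of the 30 to be tested and called 0 genes, so the comparison of the hybrids is largely one of genes that were near 0 in 1 hybrid.

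The 25 genes that were lower in H were mostly absent from it. In 23 of the 25, all 3 H libraries were under 1 FPKM, so that these genes passed the filter on low values through L alone. Their direction follows from that. The exceptions were Nitab4.5_0000206g0170 and Nitab4.5_0002616g0130, which were still expressed in H. The gene with the largest difference was Nitab4.5_0000363g0010. It was at 0.05, 0 and 0.06 FPKM in the H libraries and at 38.46, 36.37 and 61.57 FPKM in L, a difference of -5.45 (SE 0.24) on the log2(FPKM + 1) scale (limma, adjusted p = 0.00202). Every L library was high and every H library was near 0. Its neighbour Nitab4.5_0000363g0020 was at 0, 0.15 and 0 FPKM in the H libraries and at 13.63, 16.13 and 17.07 FPKM in L, a difference of -3.98 (SE 0.17; limma, adjusted p = 0.00202). These 2 genes were past the threshold in 10 of the 11 other settings, the exception being the fit with the replicate number as a block.

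Nitab4.5_0003151g0070 was at 0.05, 0.14 and 0.06 FPKM in the H libraries and at 12.12, 9.11 and 10.08 FPKM in L, a difference of -3.39 (SE 0.17; limma, adjusted p = 0.00282). Nitab4.5_0002977g0140 was at 0.47, 0.7 and 0.54 FPKM in the H libraries and at 18.24, 10.07 and 14.57 FPKM in L (-3.25, SE 0.24; limma, adjusted p = 0.00883). In both genes the 3 L libraries lay close together and far above H. None of the files used here gives a function for them. Nitab4.5_0002616g0130 differed in degree only. It was at 5.37 FPKM ± 0.0551 (SD, n = 3) in H and 18.4 FPKM ± 2.13 in L, a difference of -1.60 (SE 0.17; limma, adjusted p = 0.0406), while its 4 parental groups had means between 21.6 and 31.0 FPKM.

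**Figure D1:**
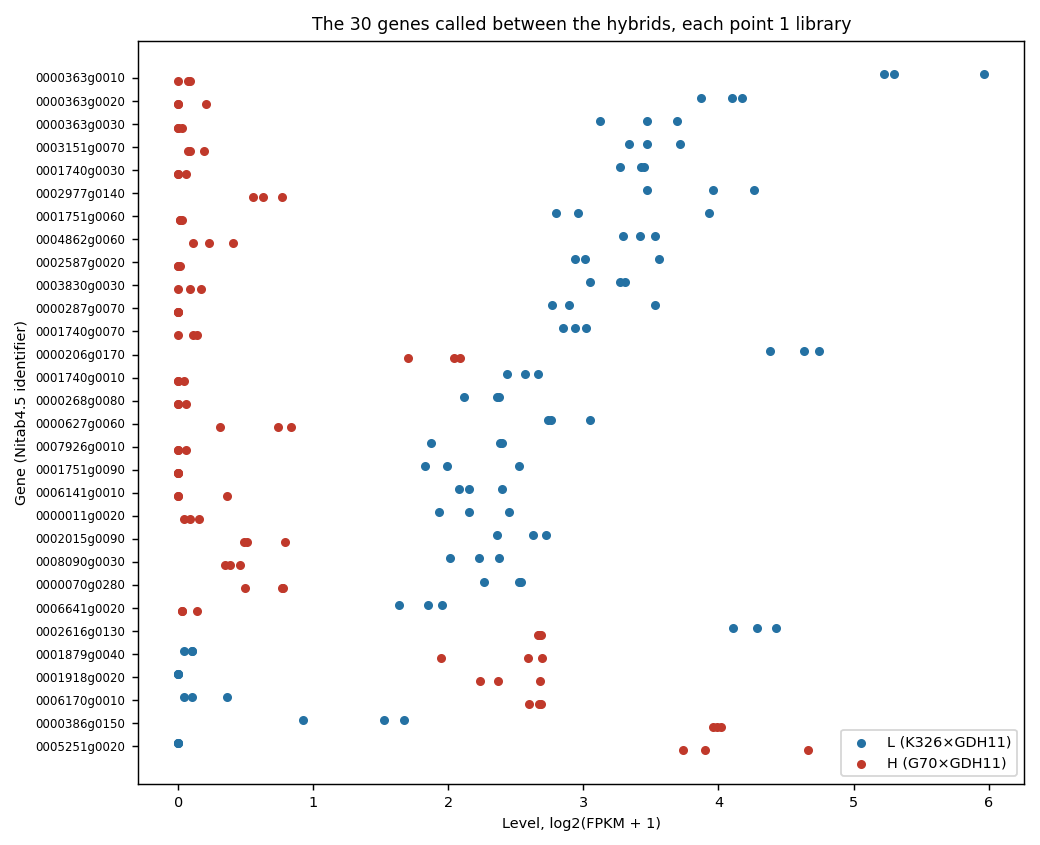
Levels of the 30 called genes in the 6 hybrid libraries on the log2(FPKM + 1) scale (horizontal axis), with 1 gene per line in order of the difference and 1 point per library. The 25 genes at the top were lower in H, where 23 of them lay under 1 FPKM in all 3 libraries, and the 5 genes at the bottom were higher in H.

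The parents divided the 25 genes into 4 patterns, with a group mean of 1 FPKM as the limit between on and off. In 17 genes, G70, K326 and GDH11 were all on. In these genes L had a median of 55.6% of the mean of its own parents (range 30.5% to 75.9%), whereas H had a median of 0.205% of the mean of its own parents. Over 31470 genes that had parental expression and passed the filter on low values, the median was 97.0% in H and 107% in L. Of these, 32 genes in H against 6 in L were under 5% of the mid-parent. A gene near 0 in 1 hybrid passed that filter only through the other hybrid, so these counts are not an independent background. Nitab4.5_0003151g0070 stands for this pattern. Its level was 16.47, 27.46 and 20.18 FPKM in G70 and 14.51, 20.42 and 25.75 FPKM in the GDH11 libraries of the same cross, while H was near 0. Both labelled parents of H thus expressed the gene and the hybrid did not, and L expressed it at 49.4% of its mid-parent.

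In 4 genes, both female parents were on and GDH11 was off. Nitab4.5_0000287g0070 was at 23.11, 20.55 and 16.86 FPKM in G70 and at 27.04, 18.14 and 22.91 FPKM in K326, and no GDH11 library exceeded 0.01 FPKM. It was listed at 0 in all 3 H libraries and was at 10.53, 6.43 and 5.8 FPKM in L, a difference of -3.06 (SE 0.24; limma, adjusted p = 0.0103). L lay between its parents, and H was like GDH11. The other genes of this pattern were Nitab4.5_0004862g0060, Nitab4.5_0002015g0090 and Nitab4.5_0008090g0030, with 2.12% to 9.62% of the mid-parent in H. In L, Nitab4.5_0008090g0030 was at 77.2% of the mid-parent, but Nitab4.5_0004862g0060 was at 260% and Nitab4.5_0002015g0090 at 239%. The mean of L was above both parents in these 2 genes, at 9.70 against 7.41 FPKM in K326 and at 4.97 against 3.80 FPKM, with libraries of L and K326 that overlapped.

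A further 3 genes were on in K326 alone, and there both hybrids followed their labelled female parent. This largely follows from the choice of genes lower in H, and most of the genes on in K326 alone in the check of labels above were expressed in H. Nitab4.5_0003830g0030 was at 11.64, 19.65 and 12.83 FPKM in K326 and at no more than 0.21 FPKM in the libraries of G70 and GDH11. It was at 0, 0.06 and 0.12 FPKM in the H libraries and at 8.64, 7.26 and 8.92 FPKM in L (-3.13, SE 0.17; limma, adjusted p = 0.00282). The others were Nitab4.5_0006641g0020 and Nitab4.5_0000011g0020. In 1 gene, Nitab4.5_0006141g0010, K326 and GDH11 were on and G70 was off. Its GDH11 mean was 9.14 FPKM ± 1.52 (SD, n = 3) in the G70 cross, and H was nonetheless at 0.0933 FPKM ± 0.162, while L was at 3.64 FPKM ± 0.544.

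Nitab4.5_0000206g0170 showed graded levels instead of absence. G70 was at 1.89, 2.33 and 2.39 FPKM, K326 at 44.13, 44.38 and 37.05 FPKM, and the 6 GDH11 libraries lay between 36.00 and 46.04 FPKM. The mean was 2.87 FPKM ± 0.538 (SD, n = 3) in H and 23.2 FPKM ± 3.05 in L, a difference of -2.65 (SE 0.19; limma, adjusted p = 0.00883). H was close to the low parent G70 at 13.4% of its mid-parent, and L was at 56.6% of its mid-parent although both of its parents were high. The female parents were also called against each other here (-3.74; limma, adjusted p = 0.000872).

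**Figure D2:**
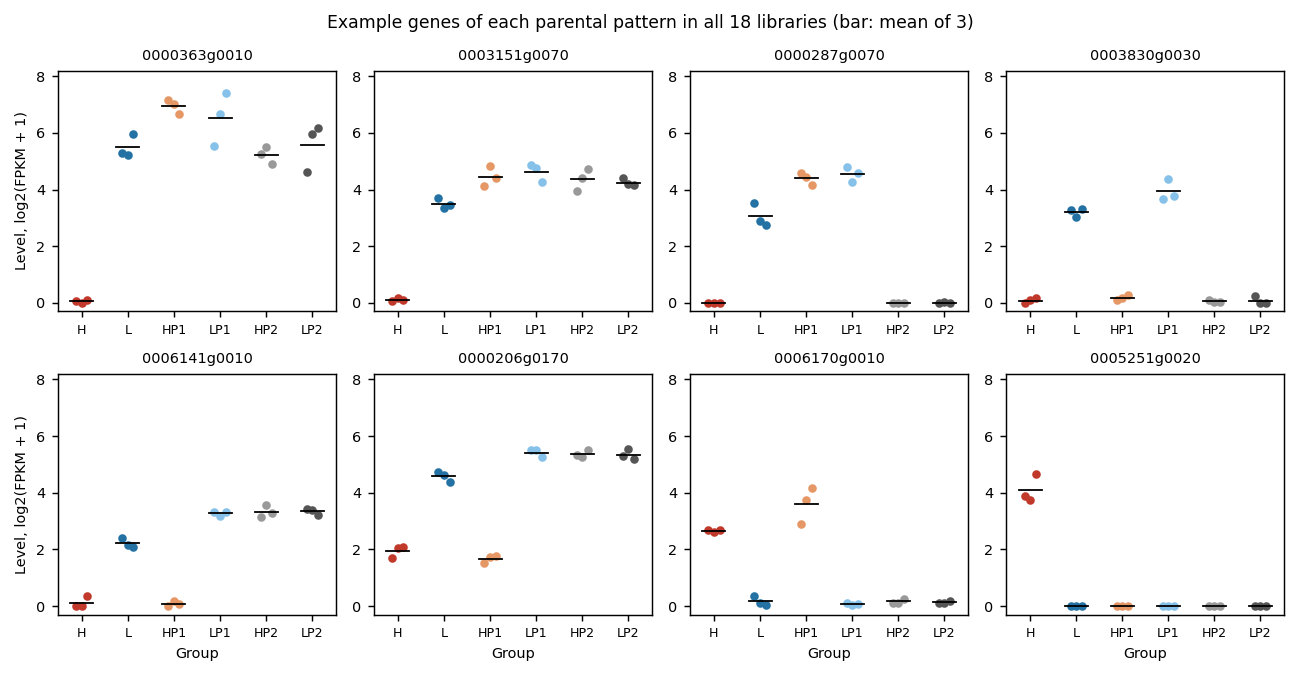
Levels of 8 called genes in all 18 libraries on the log2(FPKM + 1) scale (vertical axis) for the groups H, L, HP1 (G70), LP1 (K326), HP2 and LP2 (both GDH11), with 1 point per library and a bar at the mean of the 3 values. The panels show, in order, 2 genes on in every parent, 1 off in GDH11, 1 on in K326 alone, 2 low in G70 alone, 1 on in G70 alone, and 1 listed at 0 in every library but those of H.

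Absence from H of a gene that both of its parents express was then counted over all genes, without reference to L. In 22 genes every H library was under 0.2 FPKM while all 6 libraries of G70 and of its GDH11 were at 2 FPKM or more. By the same limits no gene (0) was near 0 in L and present in all 6 libraries of K326 and of its GDH11. The limits were chosen after the values were seen. With 0.5 and 1 FPKM the counts were 33 and 1, and with 0.1 and 5 FPKM they were 10 and 0. The values in L, which the selection did not use, were below the mid-parent in all 22 genes. The median was 47.9% of the mid-parent (quartiles 32.5% and 57.3%), and 17 of the 22 genes lay between 30% and 70%. Over the 31470 genes given above, the median in L was 107% (quartiles 89.4% and 125%). Those genes were not chosen by the same limits, and their share between 30% and 70% was not computed. Nitab4.5_0004376g0090 was listed at 0 in all 3 L libraries too, and Nitab4.5_0000002g0110 reached 2.24% of the mid-parent in L, so these 2 were near 0 in both hybrids. In 6 of the 22 genes all 3 L libraries lay below all 6 libraries of K326 and of its GDH11, and the share over all genes was not computed. In the rest, some parental library was as low as the highest L library or lower. For Nitab4.5_0000268g0080, Nitab4.5_0000660g0010, Nitab4.5_0001740g0010, Nitab4.5_0002587g0020 and Nitab4.5_0008298g0030, the only such library was LP2 replicate 2. That library had the fewest genes at 1 FPKM or more (27527) of the 18 libraries. Between the female parents 1 of the 22 was called, beside 0.412% of all genes tested there, and between the GDH11 groups 0 were called, as for all genes.

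**Figure D3:**
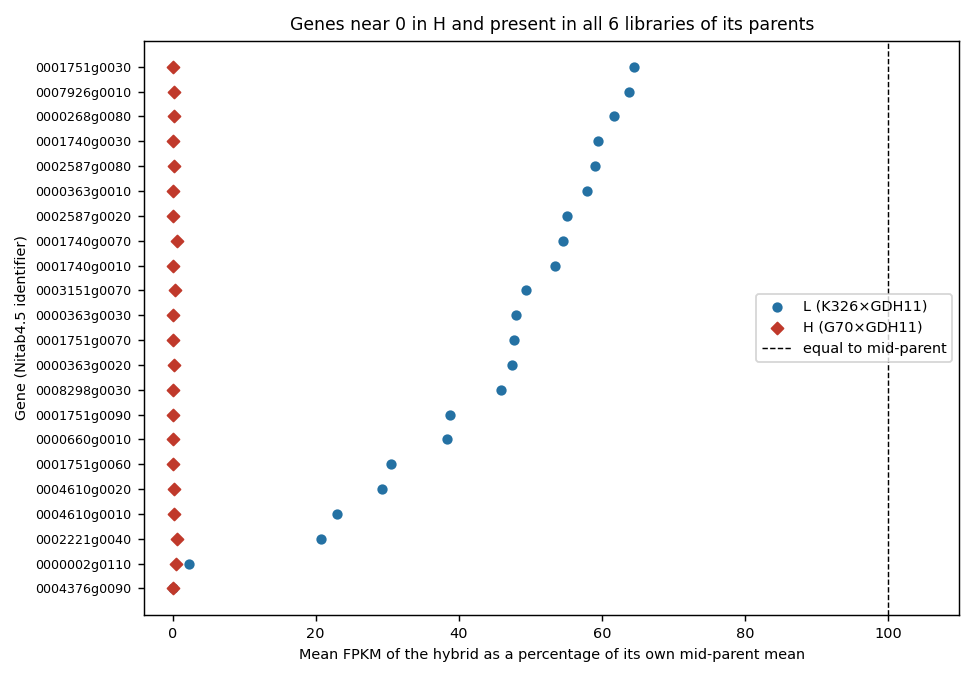
Mean FPKM of each hybrid as a percentage of the mean of its own parents (horizontal axis) for the 22 genes under 0.2 FPKM in all H libraries and at 2 FPKM or more in all libraries of its parents. H lies at 0.601% or less in each of them by the way they were chosen, while L lies between 20.7% and 64.5% in all but the 2 genes at the bottom, and the dashed line marks a level equal to the mid-parent.

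Some of the genes near 0 in H shared a scaffold of the assembly. The identifiers number the scaffold and the order of genes on it, and no coordinates were used. The 30 called genes lay on 25 scaffolds, and 8 of the 30 shared a scaffold with another called gene, on scaffolds 363 (3 genes), 1740 (3 genes) and 1751 (2 genes). All 8 were lower in H, but all of them were under 1 FPKM in every H library and passed the filter on low values through L alone. Their direction follows from that. Among all 32663 genes tested, 29000 shared a scaffold with another tested gene, a share that is not comparable because a long list leaves few genes alone on a scaffold. Of the 22 genes near 0 in H and present in its parents, 14 lay on 5 scaffolds, which were these 3 and scaffolds 2587 and 4610, both singled out after their values were seen.

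Scaffold 363 has 33 annotated genes, and those near 0 in H but expressed in L stood at its first end. The genes Nitab4.5_0000363g0010, Nitab4.5_0000363g0020 and Nitab4.5_0000363g0030 were all called, the last at 0.02, 0 and 0 FPKM in H and 10.09, 11.92 and 7.69 FPKM in L. Further along, Nitab4.5_0000363g0070 was at 3.43, 6.45 and 13.76 FPKM in H and 13.59, 5.89 and 5.17 FPKM in L, with overlapping groups (-0.12, SE 0.51; limma, adjusted p = 0.983). Nitab4.5_0000363g0080 was lower in H in all libraries, at 3.01, 2.65 and 3.87 FPKM against 9.12, 8.68 and 8.85 FPKM, without being called (-1.25; limma, adjusted p = 0.149).

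Scaffold 1740 has 16 annotated genes, of which 6 were tested. The 3 called ones passed the filter on low values through L alone. Nitab4.5_0001740g0030 was at 0, 0 and 0.04 FPKM in H and 8.67, 9.89 and 9.75 FPKM in L, a difference of -3.36 (SE 0.16; limma, adjusted p = 0.00208). Nitab4.5_0001740g0010 and Nitab4.5_0001740g0070 were called as well, at means of 0.01 and 0.06 FPKM in H against 4.89 and 6.66 FPKM in L. The gene between the first 2 of these, Nitab4.5_0001740g0020, was still present in H at 2.44, 2.98 and 2.23 FPKM and was at 6.92, 6.52 and 7.51 FPKM in L (-1.17; limma, adjusted p = 0.16). Absence was thus not shared by every gene in the row, although both groups stayed apart for this one too. Nitab4.5_0001740g0100 was at 3.78 FPKM in H and 4.40 FPKM in L on average, with overlapping groups.

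On scaffold 1751, Nitab4.5_0001751g0060 was at 0.01, 0.01 and 0.02 FPKM in the H libraries and at 14.25, 5.95 and 6.79 FPKM in L (-3.21, SE 0.31; limma, adjusted p = 0.0308). Nitab4.5_0001751g0090 was listed at 0 in all 3 H libraries and was at 2.55, 4.75 and 2.96 FPKM in L (limma, adjusted p = 0.043). The genes Nitab4.5_0001751g0030 and Nitab4.5_0001751g0070 were also near 0 in H. An expressed gene stood between Nitab4.5_0001751g0070 and Nitab4.5_0001751g0090, since Nitab4.5_0001751g0080 was at 15.67, 33.06 and 14.62 FPKM in the H libraries and at 26.66, 23.42 and 24.16 FPKM in L, and Nitab4.5_0001751g0010 at the end of the scaffold had means of 109 FPKM and 134 FPKM.

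On scaffold 2587, none of the 13 annotated genes reached 0.5 FPKM in an H library. Its 5 tested genes therefore passed the filter on low values through L alone, and their direction follows from that. Nitab4.5_0002587g0020 was at 0, 0.01 and 0 FPKM in the H libraries and at 10.76, 6.67 and 7.06 FPKM in L (-3.16, SE 0.21; limma, adjusted p = 0.00651). Nitab4.5_0002587g0080 was at 0, 0.03 and 0.03 FPKM in the H libraries and at 5.2, 17.47 and 7.78 FPKM in L, and with this wider spread it was not called (-3.30, SE 0.39; limma, adjusted p = 0.0736). On the short scaffold 4610, Nitab4.5_0004610g0020 was at 0.07, 0.03 and 0.16 FPKM in the H libraries and at 27.57, 8.81 and 6.02 FPKM in L (-3.53, SE 0.50; limma, adjusted p = 0.149), with all H libraries near 0 and L replicate 1 well above the other 2.

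**Figure D4:**
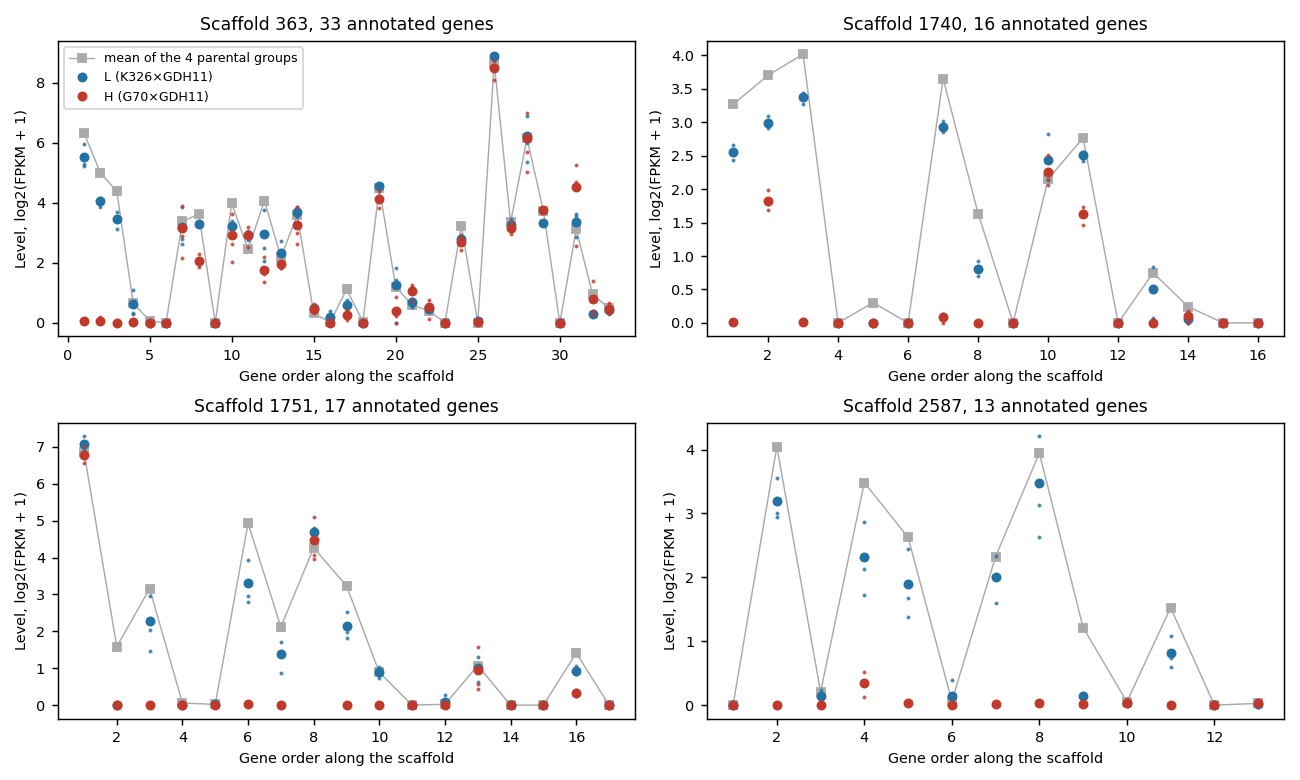
Levels on the log2(FPKM + 1) scale (vertical axis) against the order of annotated genes on scaffolds 363, 1740, 1751 and 2587 (horizontal axis), with large points for the group means of H and L, small points for single libraries and grey squares for the mean of the 4 parental groups. H lay near 0 at the first 3 genes of scaffold 363, at separate genes of scaffolds 1740 and 1751 and at every gene of scaffold 2587, while L lay between H and the parents at most of these genes.

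Of the 5 genes that were higher in H, 2 followed the female parents, which largely follows from the choice of genes by the difference between the hybrids. Nitab4.5_0006170g0010 was at 6.47, 12.27 and 17.1 FPKM in G70 and at no more than 0.20 FPKM in K326 and GDH11. It was at 5.42, 5.05 and 5.36 FPKM in the H libraries and at 0.28, 0.07 and 0.03 FPKM in L, a difference of 2.48 (SE 0.17; limma, adjusted p = 0.00651). H was at 87.4% of its mid-parent. Nitab4.5_0001879g0040 had the same pattern, with 5.01, 2.84 and 5.46 FPKM in H against 0.07, 0.07 and 0.03 FPKM in L, and H at 99.3% of its mid-parent.

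The other 3 had little or no signal in the parents. Nitab4.5_0005251g0020 was at 13.91, 12.32 and 24.38 FPKM in H and was listed at 0 in the 3 L libraries and in all 12 parental libraries. The difference between the hybrids was 4.10 (SE 0.27; limma, adjusted p = 0.0059), and no fold is given against a group listed at 0. Nitab4.5_0000386g0150 was at 15.22, 14.57 and 14.88 FPKM in the H libraries, at 0.9, 1.88 and 2.19 FPKM in L, and at no more than 1.15 FPKM in any parental library (2.61, SE 0.23; limma, adjusted p = 0.0237). H was far above all other libraries, and its replicates were nearly equal. The next expressed gene on the same scaffold, Nitab4.5_0000386g0170, looked at because of its position, was at 8.04, 10.79 and 13.8 FPKM in the H libraries, at 0.17, 0.48 and 1.39 FPKM in L and listed at 0 in every parental library, and was not called (2.86, SE 0.32; limma, adjusted p = 0.061). Nitab4.5_0001918g0020 was at 5.41, 4.15 and 3.7 FPKM in H and listed at 0 in L. It was listed at 0 in the parents too, except for LP2 replicate 2 at 4.29 FPKM, a library that stood apart from the others with 27527 genes at 1 FPKM or more.

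Genes without parental expression were also found in both hybrids. In 22 genes all 12 parental libraries were under 1 FPKM and all 6 hybrid libraries were at 1 FPKM or more. Their median ratio of H to L was 1.19, with a range of 0.622 to 2.14, beside a median of 0.948 over 32652 tested genes, and 3 of the 22 had H wholly above L, beside 3.25% of all genes tested. The highest of them was Nitab4.5_0001013g0040. It was at 73.39, 97.28 and 135.62 FPKM in the H libraries and at 85.61, 38.64 and 28.8 FPKM in L, where replicate 1 overlapped with H. The 3 genes with separate groups were Nitab4.5_0002985g0030, Nitab4.5_0004810g0030 and Nitab4.5_0021935g0010, whose means in H were 2.06, 2.12 and 2.14 times those in L, and none of these was called (limma, adjusted p of 0.577 to 0.723). By these limits, 8 further genes, Nitab4.5_0005251g0020 among them, reached 1 FPKM in all H libraries and in no L library, and 2 did so in L and in no H library.

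More genes were called between the female parents than between the hybrids. The share of tested genes with groups that did not overlap was similar, at 11.4% for the female parents and 11.6% for the hybrids. Between G70 and K326, 136 of 33019 genes tested (0.412%) were called, 55 higher and 81 lower in G70. Of the 136 genes, 119 were tested between the hybrids, 84 of these (70.6%) had the same sign there, 42 had groups that did not overlap in the same direction and 4 in the opposite direction, beside 11.6% of all genes tested with groups that did not overlap in either direction. Of the 119 genes, 6 were called between H and L, all in the same direction, beside 0.0918% of all genes tested. The 6 genes are 4.41% of the 136 calls of the female parents, not all of which were tested between the hybrids. They are 20% of the calls of the hybrids. These were the 4 lower genes Nitab4.5_0000206g0170, Nitab4.5_0003830g0030, Nitab4.5_0006141g0010 and Nitab4.5_0006641g0020 and the 2 higher genes Nitab4.5_0006170g0010 and Nitab4.5_0001879g0040. The median ratio of the log2 difference between the hybrids to that between the female parents was 0.104 over the 119 genes. Over all 31917 genes tested in both comparisons, the differences were not related (Pearson's r = -0.07, Spearman's rho = -0.09 across genes, which are not independent). Between the GDH11 groups 0 of 32535 genes were called with limma, and 328 (1.01%) had both an unadjusted p of at most 0.05 and a difference of at least 1 in size.

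The difference between the hybrids was also compared with that between their mid-parents, in a fit of all 18 libraries. H minus its mid-parent exceeded L minus its mid-parent in 11 of 34960 genes (0.0315%) and fell below it in 18 (0.0515%; limma, Benjamini-Hochberg adjustment). Of the 30 genes called between the hybrids, 15 were called in this way too and in the same direction. This fit holds the same H and L libraries by which the 30 were chosen, so it is not independent of that choice. In 16 of the 25 lower genes all H libraries lay below all 6 libraries of their own parents. For L that was the case in 8 of the 25. The shares over all genes were not computed, and the count for H depends on the choice of the 25 as lower in H.

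The list of K+ genes comes from the study, which found them in the tobacco genome by sequence similarity to Arabidopsis proteins. It holds 26 genes, of which 24 were tested and 2 of the KAT1/2 genes were too low. Of the 24, 0 were called, beside 0.0918% of all genes, a share at which no call is likely among so few genes. Of the 24, 0 had groups that did not overlap, beside 11.6% of all genes, and the smallest unadjusted p was 0.0883 (limma, adjusted p = 0.88). The median difference of the 24 genes was -0.11 on the log2(FPKM + 1) scale, beside -0.08 for all genes, and 17 (70.8%) were lower in H, beside 62.8% of all genes. The differences ranged from -0.84 to 0.34.

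Among the plasma membrane channels, the largest difference was that of an AKT2 gene, which codes for a weakly inward rectifying channel of the phloem in Arabidopsis. Nitab4.5_0001744g0070 was at 155.18, 80.04 and 42.59 FPKM in the H libraries and at 75.21, 189.46 and 217.88 FPKM in L (-0.84, SE 0.58; limma, adjusted p = 0.918). The groups overlapped, and H replicate 3 and L replicate 1 were the lowest 2 libraries. The other AKT2 gene, Nitab4.5_0000816g0130, was at 20.51, 19.74 and 27.14 FPKM in the H libraries and at 27.66, 18.42 and 23.72 FPKM in L. In guard cells of Arabidopsis, KAT1 and KAT2 let K+ in and GORK lets it out. The KAT1/2 gene Nitab4.5_0002275g0070 was at 3.02, 4.41 and 7.07 FPKM in the H libraries and at 6.62, 2.41 and 2.32 FPKM in L (0.34, SE 0.41; limma, adjusted p = 0.936). The GORK gene Nitab4.5_0000777g0090 was at 3.52, 6.29 and 7.06 FPKM in the H libraries and at 9.99, 3.39 and 3.51 FPKM in L (0.10, SE 0.42). In both genes L replicate 1 was far above the other L libraries and within or above the range of H.

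At the vacuole, NHX1 exchanges K+ or Na+ for protons, and TPC1 and the TPKs are cation channels. The NHX1 gene Nitab4.5_0002455g0040 was at 21.62, 17.62 and 13.32 FPKM in the H libraries and at 19.32, 19.88 and 19.45 FPKM in L (-0.17, SE 0.21). The TPC1 gene Nitab4.5_0000512g0020 was at 17.94, 18.76 and 23.41 FPKM in the H libraries and at 27.81, 20.13 and 21.78 FPKM in L (-0.20, SE 0.21). The TPK gene Nitab4.5_0005906g0010 was at 2.5, 2.44 and 10.69 FPKM in the H libraries and at 9.2, 3.42 and 3.66 FPKM in L (-0.19, SE 0.56). The TPK gene was at a high level in only 1 library of each hybrid, H replicate 3 and L replicate 1. In the chloroplast, KEA1/2 of the inner envelope and KEA3 of the thylakoid exchange K+ for protons in Arabidopsis, and KEA5 belongs to the endomembrane group. The KEA3 gene Nitab4.5_0001093g0060 was at 17.15, 19.81 and 7.2 FPKM in the H libraries and at 12.87, 13.87 and 16.09 FPKM in L, and the KEA1/2 gene Nitab4.5_0003111g0100 was at 24.1, 26.19 and 16.76 FPKM in the H libraries and at 22.91, 17.25 and 23.09 FPKM in L. The KEA5 gene Nitab4.5_0000072g0230 was at 3.85, 3.38 and 4.48 FPKM in the H libraries and at 4.83, 5.64 and 4.46 FPKM in L (-0.29, SE 0.18).

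CIPK5 and CIPK6 are kinases that, with CBL calcium sensors, act on K+ channels. The CIPK6 gene Nitab4.5_0004815g0040 was at 46.58, 72.12 and 276.45 FPKM in the H libraries and at 156.91, 48.33 and 80.72 FPKM in L (0.20, SE 0.72; limma, adjusted p = 0.981). Its level thus varied more between replicates than between the hybrids. The CIPK5 gene Nitab4.5_0000462g0210 was at 0.74, 0.45 and 1.81 FPKM in the H libraries and at 1.61, 1.48 and 3.51 FPKM in L, with the smallest p of the list (-0.68, SE 0.34; limma, adjusted p = 0.88).

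In 13 of the 24 K+ genes (54.2%), H replicate 3 and L replicate 1 were the 2 highest libraries of the 6, and in 4 (16.7%) they were the 2 lowest. Over all genes tested these shares were 24.2% and 11.98%. The median difference of the K+ genes was -0.26 without H replicate 3 and 0.05 without L replicate 1, so its sign rests on a single library. The difference of the AKT2 gene Nitab4.5_0001744g0070 was -0.39 without H replicate 3 and -1.32 without L replicate 1. For the CIPK5 gene Nitab4.5_0000462g0210 it was -0.95 and -0.80. The other K+ genes named above are given only with both libraries.

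**Figure D5:**
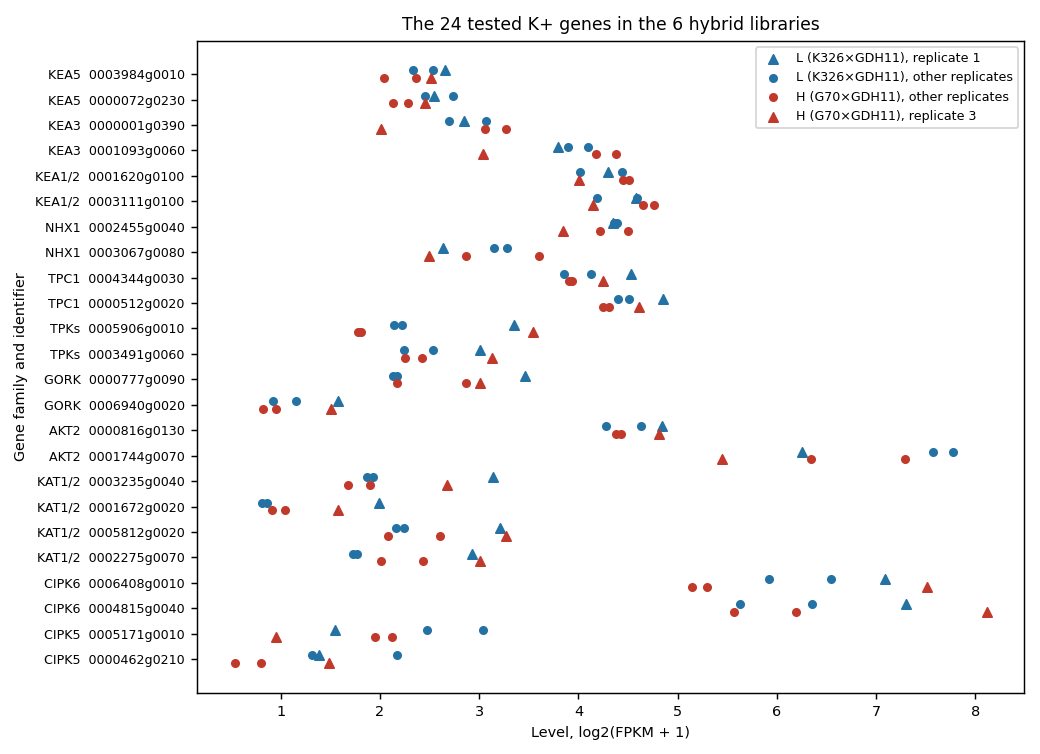
Levels of the 24 tested K+ genes on the log2(FPKM + 1) scale (horizontal axis) in the 6 hybrid libraries, with 1 gene per line, triangles for H replicate 3 and L replicate 1 and circles for the other libraries. The groups overlap in every gene, and the triangles are the 2 highest points in 13 genes.

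A list of 10 genes comes from the supplements on qRT-PCR, 9 of them listed with primers and 1 listed without, and includes the first AKT2 gene above. Of these 10 genes 0 were called, beside 0.0918% of all genes, and 0 had separate groups, beside 11.6% of all genes, so that neither count sets the list apart. The largest difference was that of Nitab4.5_0000063g0110. It was at 175.32, 267.74 and 21.76 FPKM in the H libraries and at 16.53, 72.67 and 36.08 FPKM in L (1.498, SE 0.98; limma, adjusted p = 0.912). H replicate 3 and L replicate 1 were again apart from their groups and were the lowest 2 libraries of the 6. The difference was 2.58 without H replicate 3 and 0.97 without L replicate 1.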

How the data were processed

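RNA-seq values of the 6 hybrid libraries, and of 12 parental libraries for reference, were analysed as deposited. The authors trimmed reads, mapped them to the K326 genome and estimated abundance, and deposited FPKM of 69500 genes per library with Nitab4.5 identifiers. The methods name TopHat2 and RSEM, the submitters' processing notes name HISAT2, StringTie and RSEM, and versions are not given in the sources used here. The authors' group tables of FPKM average H over replicates 1 and 2 and L over all 3, and were not used. FPKM give no read number per gene, so no counting interval was computed, and the spread of 3 libraries sets the precision. Replicates are taken to be field plots, which the labels do not state, and p-values measure only the spread between these samples.

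Values were put on the log2(FPKM + 1) scale (pseudocount 1). Genes with FPKM of at least 1 in at least 3 libraries of a fit were tested with limma 3.58.1 in R 4.3.3 (intensity trend, Benjamini-Hochberg), and called where the adjusted p did not exceed 0.05 and the log2 difference reached 1 in size. The procedure was tested on simulated data. Genes named were the K+ and qRT-PCR genes, called genes with separate groups and a mean of at least 10 FPKM, genes at 5 FPKM or more in all libraries of 1 hybrid and under 1 in all of the other, and the 3 scaffolds with the most called genes. The remaining called genes were named as examples of their parental pattern after their values were seen. Members and lists were chosen with earlier results of these data known. Alternatives were another pseudocount, other filters and scalings, a fit of 18 libraries, a replicate block, no intensity trend, unadjusted p and leaving out libraries. RefSeq names (ASM71507v2) matched 0 identifiers, no leaf cell markers could be matched, and no sequence was used.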

Additional observations from a re-analysis of the deposited data

Results flagged for a closer look

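In 16 of the genes described above, the difference between a hybrid and its mid-parent was not the same in the 2 crosses by the test of that difference itself (the effect in H minus the effect in L on the log2(FPKM + 1) scale, limma over 18 libraries, Benjamini-Hochberg adjustment). The mid-parent in this test is the mean of the parents on that scale and not the mean of FPKM. The 16 genes had been chosen by the difference between H and L or as near 0 in H. The test uses the same libraries, so it is not independent of that choice. On scaffold 363 it was -5.473 in Nitab4.5_0000363g0010 (adjusted p = 0.000128), -3.805 in Nitab4.5_0000363g0020 (adjusted p = 1.44e-07) and -3.321 in Nitab4.5_0000363g0030 (adjusted p = 4.65e-05). On scaffold 1740 it was -3.312 in Nitab4.5_0001740g0030, -2.742 in Nitab4.5_0001740g0070 and -2.415 in Nitab4.5_0001740g0010, with adjusted p of 0.000108, 0.00265 and 0.00472. For genes expressed in all parents on other scaffolds it was -3.442 in Nitab4.5_0002587g0020, -3.365 in Nitab4.5_0003151g0070, -3.363 in Nitab4.5_0002977g0140 and -2.366 in Nitab4.5_0007926g0010.

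For genes expressed in the female parents and not in GDH11 it was -3.837 in Nitab4.5_0004862g0060, -2.982 in Nitab4.5_0000287g0070 and -2.715 in Nitab4.5_0002015g0090. Nitab4.5_0000002g0110 was near 0 in both hybrids and had a value of -1.884, beside female parents that were called against each other (limma, adjusted p = 0.00114). The values were above 0 in Nitab4.5_0000386g0150 (2.395) and Nitab4.5_0005251g0020 (4.100, adjusted p = 3.65e-07), which were higher in H than in any parental library. Groups of 3 libraries were not tested for outliers.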

How the results depend on the processing

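All 30 called genes kept their direction in every setting in which they could be tested. Since their groups did not overlap, leaving out a library, another filter or another pseudocount could not change it. Of their 330 values, 167 stayed on the same side of the threshold and 163 lost the call. The calls between H and L (30, with 5 higher and 25 lower in H) became 55 (16 and 39) in a fit of all 18 libraries, 627 (328 and 299) at unadjusted p with the same limit on the difference, and 0 (0 and 0) with at least 1 FPKM in all 6 libraries, where only 2 of the 30 could be tested. Leaving out 1 library gave 3 to 18 calls, with 0 to 4 higher and 3 to 14 lower, and each such fit holds fewer samples. The counts were 9 without H replicate 1, 7 without H replicate 2, 8 without L replicate 2 and 3 without L replicate 3. Without H replicate 3 and L replicate 1, chosen after seeing the data, there were 11 (1 and 10). Calls between the female parents (136) were 45 to 148 when 1 library was left out and 957 at unadjusted p, and calls between the GDH11 groups (0) were 328 at unadjusted p. Of the alternatives added after seeing the data, a pseudocount of 0.1 gave 65 and leaving out 1 library gave 22 to 44 calls beyond the mid-parents (29), the highest without LP2 replicate 2. The genes near 0 in H (22) were 10 at limits of 0.1 and 5 FPKM, and those in L (0) were 1 at 0.5 and 1 FPKM. The median of all genes moved from -0.08 to -0.01 with median-of-ratios scaling.

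A replicate block in the model left 0 calls between H and L (0 higher and 0 lower) and 81 between the female parents. Deviations of same-numbered libraries had r of -0.655, 0.038 and -0.357 across genes, which are not independent. These values cannot show whether the numbers stand for the blocks of the field, which the labels do not state. The cause of the changes in calls was not tested. The depth behind a gene is unknown, and on the log2(FPKM + 1) scale the change of low genes is understated.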
